A study of Mus musculus with 95 samples.

Results

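Potassium channel genes were followed through messenger RNA sequencing of striatum, cortex and liver from zQ175 knock-in mice. Members were all protein-coding genes whose mouse symbol begins with Kcn, which gave 94 genes among the 39179 of the deposited tables. They were sorted by name and known role into 15 subfamilies. The pore-forming voltage-gated genes comprised 8 of the Kv1 subfamily (Kcna), 2 of Kv2 (Kcnb), 4 of Kv3 (Kcnc), 3 of Kv4 (Kcnd), 8 of the ether-a-go-go or EAG group (Kcnh) and 5 KCNQ genes. A further 10 code for silent Kv subunits (Kcnf, Kcng, Kcns and Kcnv). The other pore-forming genes comprised 15 inward rectifiers (Kcnj), 14 leak channels with a pair of pore loops per subunit, called two-pore (Kcnk), and a group of 8. That group (Kcnma, Kcnn, Kcnt and Kcnu) is labelled calcium- or sodium-activated below, and Kcnu1 was placed in it by name and not by its gating. Auxiliary subunits comprised 3 Kv beta (Kcnab), 5 KCNE, 4 potassium channel interacting proteins or KChIPs (Kcnip) and 4 BK beta genes (Kcnmb). Kcnrg, a channel regulator, stood alone.

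The Het mice were heterozygous knock-ins in which the mouse huntingtin gene, Htt, carries an expanded CAG repeat, the mutation of Huntington disease. They came from 2 lines, labelled Het z_Q175 KI (strain CHDI-81003003, with the neo selection cassette, neo-in below) and Het Z_Q175 (neo-) KI (strain CHDI-81003019, without it, neo-out below). Their references were the wild-type (WT) littermates of each line. All mice were on the C57BL6/J background and 6 months old, each group held 4 females and 4 males, and the left striatum, left cortex and liver were taken from the same animals. The 95 libraries came from 32 animals. The neo-out Het striatum had 7 libraries because 1 male of that group had no striatal library among the 95. The expanded allele sits in the endogenous gene and is present in every cell, and the labels name no Cre driver.

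Potassium channels let potassium ions leave the cell along their gradient and thereby set the resting potential, the shape of the action potential and the rate of firing. Voltage-gated channels open on depolarization, inward rectifiers and leak channels act near rest, and auxiliary subunits alter how much channel reaches the membrane and how fast it inactivates. Medium spiny neurons, which make up most of the striatum and send its output, are known for a very negative resting potential held by inward rectifiers and for a slowly inactivating A-type current that delays their first spike.

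Depth was similar in brain and wider in liver, at 31.1 to 43.05 M expected counts per striatal library, 31.02 to 43.99 M in cortex and 33.12 to 68.36 M in liver. Htt itself averaged 149 ± 14.6 CPM (counts scaled to the TMM-adjusted library size) in neo-in Het striata and 196 ± 7.03 CPM in WT striata of that line (SD, n = 8 each). In the neo-out line it averaged 166 ± 7.11 CPM in Het (n = 7) and 195 ± 16.7 CPM in WT striata (n = 8). These counts do not separate the 2 alleles, so they do not check the knock-in itself. A few brain libraries stood apart in genes of neighbouring tissue. Ttr, the transthyretin gene that marks choroid plexus in brain, reached 1348 CPM in neo-out WT striatum female 3, and Slc17a7, a glutamate transporter of cortical projection neurons, reached 143 CPM in neo-in WT striatum female 3. In 6 striatal libraries 1 of these genes exceeded 5 times its median over the tissue, and 4 of the 6 were neo-out WT. Where a call named below differed without these 6 libraries, that is said beside it.

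In WT mice the repertoire was broad in brain and narrow in liver. FPKM, the authors' fragment count scaled to transcript length and library size, allows levels of different genes to be set side by side. At least 1 FPKM was reached by 61 of the 94 members in striatum, 67 in cortex and 4 in liver. These are 64.9%, 71.3% and 4.26% of the members, against 58.6%, 58.5% and 48.3% of all 21303 protein-coding genes. Members not measured well enough for a test in striatum numbered 12: Kcna7, Kcna10, Kcne1, Kcne3, Kcnj1, Kcnj15, Kcnk7, Kcnk15, Kcnk16, Kcnk18, Kcnmb3 and Kcnv2. In cortex Kcnn4 joined them. In liver 34 of 94 members could be tested.

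The member with the highest level in WT striatum was Kcnab1, which codes for the Kv beta subunit that confers fast inactivation on Kv1 channels, at 138 ± 12.5 FPKM (SD, n = 16). Kcnip2, a calcium-binding subunit of the Kv4 channels, followed at 121 ± 7.64 FPKM. The libraries of Kcnab1 (110.3 to 157.5 FPKM) and Kcnip2 (109 to 137 FPKM) overlapped. In WT cortex the order differed. The Kv beta gene Kcnab2 had the highest level there, at 124 ± 12.7 FPKM, and Kcnc1, a Kv3 channel of fast-spiking cells, stood at 58.4 ± 6.34 FPKM. In WT liver Kcnn2, a small-conductance calcium-activated channel, stood at 13.4 ± 2.21 FPKM, and Kcnk5, an acid-sensitive leak channel, at 10.9 ± 4.29 FPKM. Kcnj8, the pore of a vascular ATP-sensitive channel, was also above 1 FPKM there, at 1.45 FPKM.

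Summed over its members, each subfamily gave a tissue profile. The 3 Kv beta genes summed to 219 FPKM in WT striatum and 191 FPKM in WT cortex, and the KChIPs to 182 FPKM in striatum and 136 FPKM in cortex. The 3 Kv4 genes summed to 51.9 FPKM in striatum and 30.3 FPKM in cortex. The reverse order held for Kv3, with 62.0 FPKM in striatum and 133 FPKM in cortex, and for the inward rectifiers, with 154 FPKM in striatum and 208 FPKM in cortex. In liver the Ca- and Na-activated channels led with 14.9 FPKM, carried by Kcnn2, and the two-pore channels followed with 12.8 FPKM, carried by Kcnk5. All 94 members together summed to 1230 FPKM in striatum, 1339 FPKM in cortex and 35.1 FPKM in liver.

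The comparison of WT striatum with WT cortex, whose libraries came from the same animals, asked which members distinguish the 2 regions. Of 82 members tested, 25 were higher and 47 lower in striatum (edgeR quasi-likelihood test, Benjamini-Hochberg adjusted p below 0.05, n = 16 each). The members' shares were 30.5% higher and 57.3% lower, beside backgrounds over all 17734 genes tested of 38.8% higher and 36.2% lower, 75% in either direction. The median log2 difference was -0.40 over the members and 0.02 over all genes tested. Among the voltage-gated channels, Kcna5 was 3.25 ± 0.12 (log2 ± SE) higher in striatum (adjusted p = 1.05e-20), at 7.62 FPKM in striatum and 0.82 FPKM in cortex. Kcna4, the pore of an A-type Kv1 channel, was higher by 2.09 ± 0.04 (adjusted p = 5.80e-27), at 15.8 FPKM in striatum and 3.75 FPKM in cortex. Kcnd2, the main somatodendritic A-type pore of the Kv4 subfamily, was higher by 1.19, at 39.3 FPKM in striatum and 17.3 FPKM in cortex.

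The Kv3 genes Kcnc4, Kcnc2 and Kcnc1 were lower in striatum, Kcnc4 most, at -2.27 ± 0.08 (edgeR adjusted p = 5.43e-22), and the Kv2 gene Kcnb2 was lower by 0.61 on the log2 scale. Kcnh7, an ERG-type channel of the EAG group, was lower by 2.43 on the log2 scale, and the gene overlaps Gca on the opposite strand. Among the inward rectifiers the subfamily split. Kcnj2, a strong inward rectifier that holds the resting potential, was higher in striatum by 1.70 ± 0.06 (adjusted p = 6.87e-21), whereas Kcnj6 and Kcnj3, G-protein-gated rectifiers that open downstream of inhibitory receptors, were lower, at -3.48 ± 0.12 (adjusted p = 1.08e-21) and -2.24 ± 0.08. The leak channels split too. The mechanosensitive Kcnk4 had the greatest difference of any member tested here, -3.92 ± 0.16 (adjusted p = 5.78e-20), at 0.537 FPKM in striatum and 7.12 FPKM in cortex, and Kcnk12, a silent two-pore subunit, was also lower by 2.68, while the mechanosensitive Kcnk2 was higher by 1.27. Kcnn3, a calcium-activated channel, was higher by 1.44 ± 0.07. Of the auxiliary genes, Kcnab1 was higher by 2.31 ± 0.04 (adjusted p = 1.04e-27), Kcnip2 by 1.25 and the KCNE gene Kcne1l by 1.85 ± 0.10, while the other KChIPs and the other Kv beta genes were lower.

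**Figure D1:**
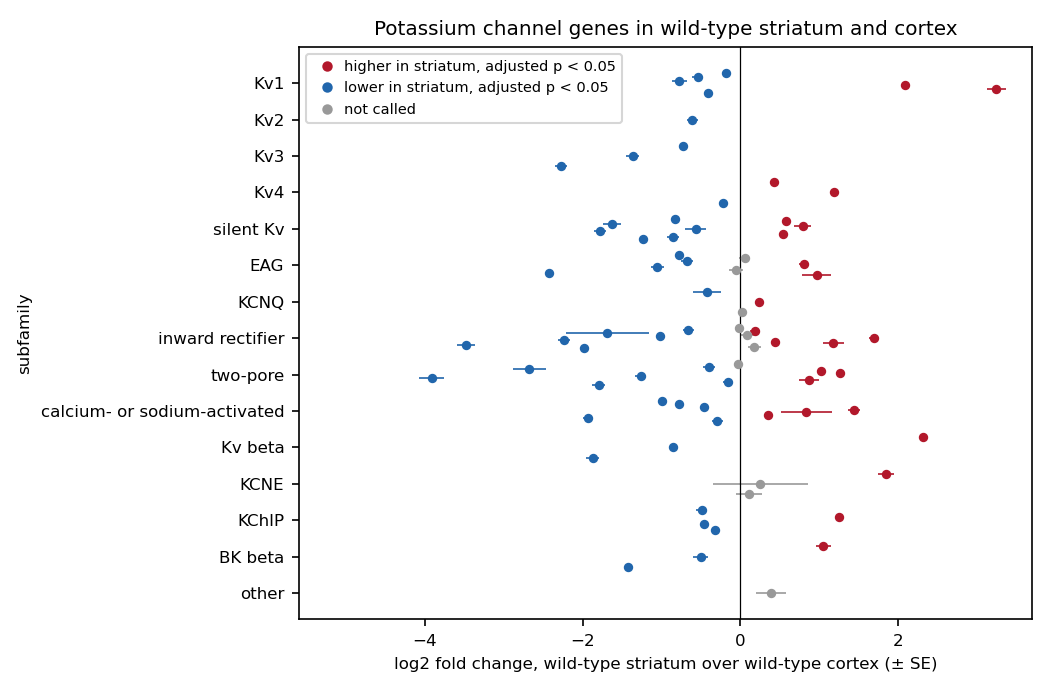
Log2 fold change of WT striatum over WT cortex (x axis, ± SE) for 78 of the tested members, placed by subfamily (y axis). Red points were higher and blue points lower in striatum at adjusted p below 0.05, grey points were not called, and the Kv3 points shown lie left of 0.

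Liver differed far more. Of 84 members tested against WT cortex, 8 were higher and 75 lower in WT liver (edgeR quasi-likelihood test, Benjamini-Hochberg adjusted p below 0.05), beside backgrounds of 42.6% higher, 50.4% lower and 93% either. Kcnk5 was higher by 7.16 ± 0.21 (adjusted p = 3.22e-24), at 10.9 FPKM in liver and 0.149 FPKM in cortex. Kcne3 and Kcnq1, a KCNE subunit and the pore with which it forms a channel of epithelial cells, were higher by 4.86 and 2.48, and the others were Kcnj15, Kcnn4, Kcnrg, Kcnj8 and Kcnn2. Kcnj8 and Kcnn2 were higher by 0.65 ± 0.13 and 0.58 ± 0.06 from counts. On the log2(FPKM + 0.1) scale, where the median of all genes moved to -0.99, they were lower, at -0.33 and -0.27, so their direction depends on the scaling. Kcnrg, which overlaps Dleu2 on the opposite strand, was higher by 1.08 from counts. On the log2(FPKM + 0.1) scale it gave 0.14 and was not called (limma adjusted p = 0.326). The most strongly lowered members held almost no reads in liver. Kcnv1, a silent Kv subunit, had 0 counts in the 16 WT livers and 24.04 ± 2.44 FPKM in cortex. The M-current gene Kcnq3, the rectifier Kcnj3, the Kv3 gene Kcnc2 and the Kv1 gene Kcna1 were at most at 0.00129 FPKM in liver. No fold is given for these genes.

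The central comparison set Het against WT striatum within each line, the region in which Huntington disease does most damage. Potassium channel genes were mostly lower where they changed. In the neo-in line 2 of 82 tested members rose and 21 fell, 28.1% called, beside a background of 19.4% of 17703 genes (8.75% higher, 10.7% lower). In the neo-out line 2 rose and 16 fell, 22.0% called, beside a background of 18% (8.71% higher, 9.28% lower). All calls are from the edgeR quasi-likelihood test at Benjamini-Hochberg adjusted p below 0.05. The median log2 fold change was -0.10 over the members in neo-in and -0.12 in neo-out, and 0.01 over all genes in each. Of the members that fell, 14 did so in both lines, which is 66.7% of those in neo-in and 87.5% of those in neo-out. Over all genes 1194 fell in both lines, 63.2% of those in neo-in and 72.7% of those in neo-out. They included Kcnh3, Kcnh4, Kcnh5, Kcnq5, Kcns2, Kcnj4, Kcnk1, Kcnk2, Kcnk13, Kcnt1, Kcnab1, Kcnip2 and Kcnip3, and Kcng1 rose in both. Het and WT libraries of the 2 lines are separate animals, so the lines share no control.

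On FPKM values the split over all genes shifted upward, with 67.98% of called genes higher in neo-in and 65.5% in neo-out, against 45.1% and 48.4% from counts. The members kept a mostly downward split there, with 3 higher and 17 lower in neo-in and 2 higher and 16 lower in neo-out. Without the 6 libraries high in Ttr or Slc17a7 the members' counts were 1 higher and 20 lower in neo-in, and 2 higher and 14 lower in neo-out. A score of circadian clock genes, taken from the livers of the same mice, also moved with genotype in the neo-out line. It ran from -1.79 to 1.98 in neo-out Het and from 1.53 to 3.72 in WT mice, and from -2.76 to 0.89 in neo-in Het and from -2.62 to 0.32 in WT mice. With the score in the fit, members numbered 2 higher and 11 lower in neo-out and 1 higher and 17 lower in neo-in. Over all genes 6.327% were called in neo-out with the score, against 18% without it. For neo-in with the score, and for the fits without the 6 libraries, the share over all genes is not given here. The calls of Kcnk1, Kcnk13, Kcns1, Kcns2, Kcnh8 and Kcnj14 in neo-out and of Kcnh3, Kcna4 and Kcnma1 in neo-in were lost with the score. Their edgeR adjusted p was 0.102 to 0.456 in neo-out and 0.0626 to 0.107 in neo-in. In the order named, the neo-out log2 fold changes were -0.20, -0.24, -0.43, -0.36, 1.09 and -0.37 with the score. Without it they were -0.26, -0.27, -0.54, -0.33, 0.72 and -0.47. The neo-in values were -0.27, -0.17 and -0.25 with the score and -0.36, -0.17 and -0.26 without it. The score moved with genotype in neo-out, so this fit cannot well separate the 2. Kcnk10 was called higher in neo-out (adjusted p = 0.0498).

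Most marker genes of medium spiny neurons were also lower in Het striata. Of 16 medium spiny neuron markers, 15 fell in neo-in and 14 in neo-out, with a median log2 fold change of -0.69 in each line and no marker at 0. Their summed level ran from 7290 to 8506 CPM in neo-in Het and from 11690 to 14670 CPM in WT striata, and from 6605 to 8786 CPM in neo-out Het and from 11100 to 13940 CPM in WT striata. Their part in the members' changes was not tested. In tissue RNA, fewer cells of a type and less RNA per cell cannot be told apart. Over all genes tested in striatum, 8.75% rose and 10.7% fell in neo-in, and 8.71% rose and 9.28% fell in neo-out. These backgrounds also stand beside the striatal marker lists below.

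Promoters are shown for Kcnip2, Kcnj4 and Kcnh5 because these genes fell in both lines with no overlap of Het and WT libraries and because their RefSeq starts lie within 2 bases of the annotated gene starts. Each line gives the 250 bases before the start (RefSeq, GRCm38.p6), 5′ to 3′ on the gene's own minus strand, at chr19:45816064-45816313, chr15:79505242-79505491 and chr12:75177333-75177582 in that order, and capitals mark GC boxes (GGGCGG, or its complement CCGCCC).
Kcnip2: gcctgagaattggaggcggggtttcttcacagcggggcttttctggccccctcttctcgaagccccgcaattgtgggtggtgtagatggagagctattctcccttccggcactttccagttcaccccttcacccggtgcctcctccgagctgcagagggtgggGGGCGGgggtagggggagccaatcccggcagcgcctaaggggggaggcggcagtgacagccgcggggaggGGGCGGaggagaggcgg
Kcnj4: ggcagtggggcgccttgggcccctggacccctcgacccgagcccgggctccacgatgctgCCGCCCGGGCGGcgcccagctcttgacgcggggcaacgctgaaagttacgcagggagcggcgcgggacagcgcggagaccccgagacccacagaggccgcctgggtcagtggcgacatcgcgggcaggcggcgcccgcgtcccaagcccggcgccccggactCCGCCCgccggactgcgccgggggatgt
Kcnh5: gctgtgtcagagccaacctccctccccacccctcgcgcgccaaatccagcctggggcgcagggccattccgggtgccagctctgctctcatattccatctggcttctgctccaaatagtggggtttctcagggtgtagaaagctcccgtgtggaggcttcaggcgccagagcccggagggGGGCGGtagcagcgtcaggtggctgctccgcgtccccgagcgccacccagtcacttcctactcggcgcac
Windows of this kind were found for 69 of the 94 members and for 10 of the 14 that fell in both lines. A GC box, searched on both strands, was present in 4 of those 10, in 32 of the 69 (46.4%) and in 32.7% of 32851 windows in the table. The E-box CACGTG was present in 2 of the 10, Kcnab1 and Kcnh4, in 5 of the 69 (7.25%) and in 6.02% of all windows. TGACGTCA, the full cyclic AMP response element, was in none of the 69 and in 1.55% of all windows, and TATAAA was in 2 of the 69, Kcnj9 and Kcnj13, and in 12.4% of all. None of the 4 motifs contains another. These matches describe letters and not binding.

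Among the voltage-gated pores, the EAG group held the greatest falls. Kcnh4 (ENSMUSG00000035355, GRCm38 chromosome 11, 100740376 to 100759942, minus strand) codes for an ELK-type channel of forebrain neurons. Its level in neo-in Het striata had a lowest, median and highest value of 21.4, 24.4 and 28.6 CPM, against 42.2, 46.9 and 60.9 CPM in WT striata. In the neo-out line the values were 18.9, 23.4 and 25.1 CPM in Het striata and 37.5, 38.8 and 46.2 CPM in WT striata. Every Het library lay below every WT library in both lines. The log2 fold changes were -0.98 ± 0.07 in neo-in (edgeR adjusted p = 4.60e-11) and -0.85 ± 0.08 in neo-out (adjusted p = 2.69e-09), and Het means were 50.6% and 56.4% of WT means.

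Kcnh5 (chromosome 12, 74897220 to 75177332, minus strand), an EAG channel of neurons, was a low-level gene with the same separation. In the neo-in line it stood at 2.55, 3.37 and 3.83 CPM (lowest, median, highest) in Het striata and 3.99, 5.09 and 6.96 CPM in WT striata. In the neo-out line it stood at 3.16, 3.42 and 4.04 CPM in Het and 4.23, 5.13 and 5.82 CPM in WT striata. The changes were -0.68 ± 0.10 (edgeR adjusted p = 7.68e-06) and -0.54 ± 0.10 (adjusted p = 0.000322). Kcnh3, also an ELK gene, fell by 0.36 in neo-in and by 0.40 in neo-out on the log2 scale, with overlapping groups, and it lies opposite Mcrs1, whose reads cannot be told apart if strand was not kept. Its neo-out call was lost without the 6 libraries high in Ttr or Slc17a7 (adjusted p = 0.112). Kcnh8, another ELK gene, moved the other way at a very low level. It stood at 1.14, 1.24 and 1.64 CPM in neo-out Het and 0.428, 0.748 and 1.28 CPM in WT striata, with overlap, and rose by 0.72 ± 0.22 (adjusted p = 0.0232), a call lost when Het male 2, Het female 4, WT female 2 or WT female 4 was left out. In neo-in Kcnh8 was at 1.02, 1.15 and 1.41 CPM in Het and 0.431, 0.685 and 1.34 CPM in WT striata, a difference of 0.59 that missed the threshold (edgeR adjusted p = 0.0529). Which line was called depended on the tool. DESeq2 called it in neo-in (adjusted p = 0.0368). So did limma on log2(FPKM + 0.1) (adjusted p = 0.0132), which did not call it in neo-out (adjusted p = 0.0729).

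Among the KCNQ genes, Kcnq3 and Kcnq5 code for subunits of the M-current channels, which muscarinic receptors close to raise excitability. Kcnq5 (chromosome 1, 21398403 to 21961942, minus strand) had 90.4, 103 and 112 CPM in neo-in Het and 127, 136 and 151 CPM in WT striata, without overlap (-0.41 ± 0.06, edgeR adjusted p = 4.13e-06). In neo-out it had 90.1, 91.3 and 110.4 CPM in Het and 109, 122 and 147 CPM in WT striata, a fall of 0.35 ± 0.06 on the log2 scale (adjusted p = 8.96e-05) with slight overlap. Kcnq3 fell by 0.22 in neo-in (adjusted p = 0.00787) and gave -0.14 in neo-out, which was not called.

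Kcnb2, a Kv2 gene that codes for a delayed rectifier of the soma, fell in neo-in by 0.51 ± 0.11 on the log2 scale (edgeR adjusted p = 0.000736). In neo-out it gave -0.25 and was not called, and the difference between the lines was not called either. The Kv1 genes Kcna4 and Kcna5, whose WT levels set striatum apart from cortex, had small differences. Kcna5 stood at 16.5, 17.3 and 21.7 CPM in neo-in Het and 18.1, 22.7 and 29.3 CPM in WT striata (-0.31 ± 0.07, adjusted p = 0.00153), and gave -0.10 in neo-out. Kcna4 gave -0.17 ± 0.06 in neo-in (adjusted p = 0.0446), a call lost when any of 10 single libraries or the 6 libraries high in Ttr or Slc17a7 were left out (adjusted p = 0.0866), and -0.16 in neo-out (adjusted p = 0.0732). None of the 3 Kv4 genes and none of the Kv3 genes Kcnc1, Kcnc2 and Kcnc4 was called in either line, by edgeR or by DESeq2, and 1 of them, Kcnd2 in neo-in, had an unadjusted edgeR p below 0.05. Kcnd2, the Kv4 pore, gave -0.13 ± 0.06 in neo-in (adjusted p = 0.141) and -0.12 ± 0.06 in neo-out (adjusted p = 0.192). Summed Kv4 levels overlapped, at 44.5 to 53.2 FPKM in neo-in Het and 47.6 to 56.8 FPKM in WT striata.

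Silent Kv subunits form no channel alone and modify Kv2 channels when they join them. Kcng1 (chromosome 2, 168260117 to 168281736, minus strand) was the only member that rose in both lines. It stood at 35.7, 43.1 and 50.2 CPM in neo-in Het and 25.9, 29.5 and 34.5 CPM in WT striata. In neo-out it stood at 37.9, 42.3 and 43.4 CPM in Het and 26.2, 28.5 and 33.1 CPM in WT striata. No Het library overlapped a WT library in either line, and Het means were 147% and 144% of WT means (0.55 ± 0.06, edgeR adjusted p = 4.34e-08, and 0.52 ± 0.06, adjusted p = 2.49e-07). Kcns2 fell in both lines, by 0.29 and 0.33 on the log2 scale. Kcns1 fell in neo-out, at 2.96, 4.61 and 6.12 CPM in Het and 5.71, 6.41 and 7.83 CPM in WT striata (-0.54 ± 0.11, adjusted p = 0.000865), and gave -0.12 in neo-in (adjusted p = 0.501). It is a gene of higher level in cortex, at 2.32 FPKM in WT striatum and 7.99 FPKM in WT cortex. Of 10 markers of cortical excitatory neurons 3 were lower in neo-out Het striatum (median log2 fold change -0.96) and 0 in neo-in, where 1 was higher (median 0.08), and none was at 0. Their sums ran from 273 to 464 CPM in neo-out Het and from 397 to 682 CPM in WT striata, and from 308 to 494 CPM in neo-in Het and from 351 to 765 CPM in WT striata. Without the 6 libraries high in Ttr or Slc17a7, Kcns1 gave -0.52 in neo-out (adjusted p = 0.0463). Of 10 oligodendrocyte markers 4 fell in neo-out, and 2 rose and 3 fell in neo-in, with none at 0. Those sums ran from 7562 to 9191 CPM in neo-out Het and from 9181 to 10750 CPM in WT striata, and from 8113 to 9934 CPM in neo-in Het and from 8314 to 11590 CPM in WT striata. The part of either list in the members' values was not tested.

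**Figure D2:**
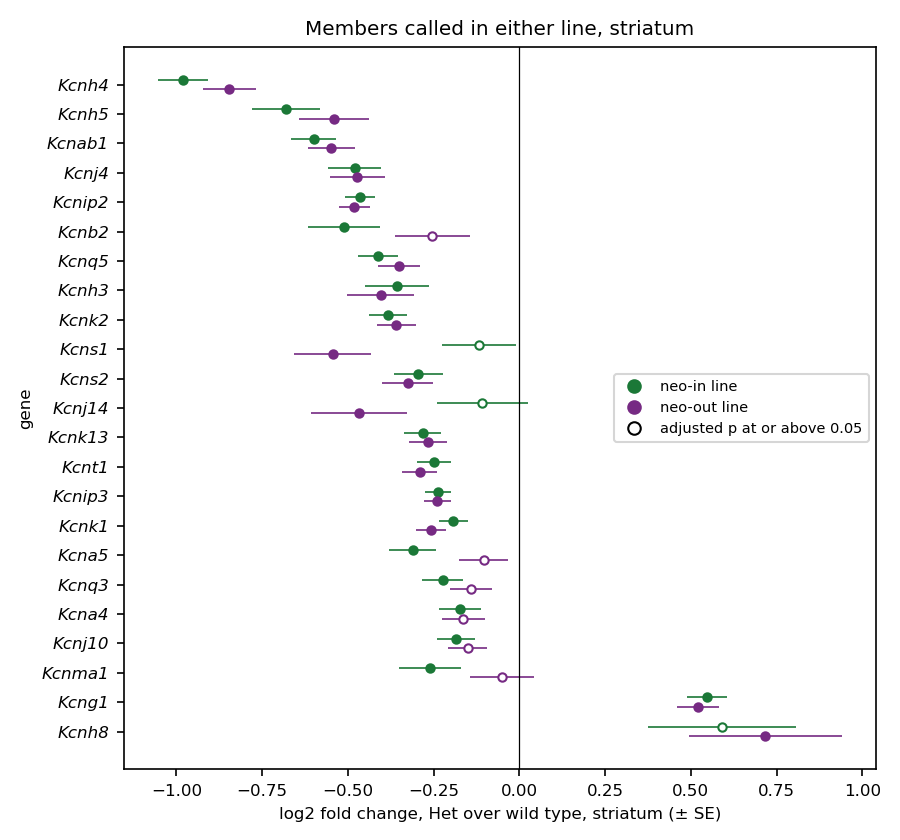
Log2 fold change of Het over WT striatum (x axis, ± SE) for 23 members called in either line (y axis), neo-in in green and neo-out in purple, open where the adjusted p was 0.05 or more. Kcnh4 lies farthest left in both lines, and Kcng1 and Kcnh8 are the points right of 0.

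Among the inward rectifiers Kcnj4 fell in both lines, and Kcnj2, the strong rectifier that distinguished striatum from cortex, was called in neither. Kcnj4 (chromosome 15, 79483714 to 79505241, minus strand) is known for its enrichment in forebrain dendrites. It stood at 73.3, 89.4 and 98.3 CPM in neo-in Het and 99.4, 118 and 160 CPM in WT striata, and at 62.9, 83.6 and 89.8 CPM in neo-out Het and 100.2, 109 and 122 CPM in WT striata. The groups did not overlap in either line, and Het means were 71.4% and 73.3% of WT means (-0.48 ± 0.08, edgeR adjusted p = 3.07e-05, and -0.47 ± 0.08, adjusted p = 8.31e-05). Kcnj2 stood at 60.2, 68.1 and 83.7 CPM in neo-in Het and 66.3, 73.9 and 88.8 CPM in WT striata, with wide overlap. It gave -0.11 ± 0.07 in neo-in (adjusted p = 0.348) and -0.15 ± 0.08 in neo-out (adjusted p = 0.198), and the difference between Kcnj4 and Kcnj2 was not tested. Kcnj14, a low-level strong rectifier, fell by 0.47 ± 0.14 in neo-out (adjusted p = 0.0175), a call lost without WT male 1 or Het male 2 or without the 6 libraries high in Ttr or Slc17a7.

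Some rectifiers belong to other cell types. Kcnj10, the potassium-buffering channel of astrocytes, stood at 207, 225 and 249 CPM in neo-in Het and 244, 259 and 279 CPM in WT striata (-0.19 ± 0.05, edgeR adjusted p = 0.0160), and gave -0.15 ± 0.06 in neo-out (adjusted p = 0.0671). Its neo-in call was lost on log2(FPKM + 0.1) (limma adjusted p = 0.0764), and DESeq2 called it lower in neo-out (adjusted p = 0.0482). Of 10 astrocyte markers, 1 rose and 2 fell in neo-in and 1 rose and 5 fell in neo-out, with none at 0. Their sum ran from 4377 to 5080 CPM in neo-in Het and from 5332 to 5734 CPM in WT, and from 4415 to 4762 CPM in neo-out Het and from 4884 to 5647 CPM in WT striata. Kcnj8, the pore of the ATP-sensitive channel of pericytes, gave -0.27 ± 0.10 in neo-in (adjusted p = 0.0666) and -0.24 ± 0.11 in neo-out (adjusted p = 0.132). Its partner Abcc9, the sulphonylurea-receptor subunit of that channel, fell by 0.43 and 0.27. Of 10 endothelial and mural markers, which include Abcc9, 6 fell in neo-in and 4 in neo-out, with sums of 378 to 428 CPM in neo-in Het and 431 to 536 CPM in WT striata. In neo-out those sums ran from 378 to 431 CPM in Het and from 412 to 470 CPM in WT striata. The part of these cell types in the members' values was not tested.

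Of the 14 leak channels, of which Kcnk7, Kcnk15, Kcnk16 and Kcnk18 were not tested, 3 fell in each line. They were Kcnk1, Kcnk2 and Kcnk13 both times, beside backgrounds of 10.7% lower in neo-in and 9.28% lower in neo-out. Kcnk2, opened by stretch and by polyunsaturated lipids, stood at 91.2, 99.2 and 101 CPM in neo-in Het and 116, 126 and 140 CPM in WT striata, without overlap. In neo-out it stood at 85.3, 96.8 and 118 CPM in Het and 105.5, 123.5 and 144 CPM in WT striata, with overlap. The changes were -0.38 ± 0.06 (edgeR adjusted p = 7.00e-06) and -0.36 ± 0.06 (adjusted p = 3.95e-05). Kcnk13, a halothane-inhibited leak channel that microglia also use, fell by 0.28 and 0.27, and Kcnk1, a weakly conducting leak channel, by 0.19 and 0.26 on the log2 scale. Summed over the 14 genes, two-pore levels ran from 72.9 to 79.5 FPKM in neo-in Het and from 83.04 to 94.4 FPKM in WT striata, and from 73.1 to 81.0 FPKM in neo-out Het and from 87.0 to 93.3 FPKM in WT striata, so the sums did not overlap in either line. Of 8 microglia markers, 2 fell in neo-in and 0 in neo-out, with none at 0 and sums of 420.4 to 497 CPM in neo-in Het and 466.5 to 540.5 CPM in WT striata, and 414 to 479 CPM in neo-out Het and 440 to 495 CPM in WT striata. Their part in Kcnk13 was not tested. Kcnt1, a sodium-activated channel that follows bursts of spikes, fell by 0.25 ± 0.05 in neo-in (adjusted p = 0.000450) and by 0.29 ± 0.05 in neo-out (adjusted p = 0.000141). Kcnma1, the BK channel pore, fell by 0.26 in neo-in (adjusted p = 0.0426) and gave -0.05 in neo-out. Its neo-in call was lost without the filter on low counts (edgeR adjusted p = 0.0524). It was also lost on log2(FPKM + 0.1) (limma adjusted p = 0.0791).

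The most abundant auxiliary genes of the striatum both fell. Kcnab1 (chromosome 3, 65109384 to 65378223, plus strand) stood at 266, 309 and 335 CPM in neo-in Het and 403, 471 and 504 CPM in WT striata, without overlap. In neo-out it stood at 254.5, 296 and 364 CPM in Het and 363, 428 and 517 CPM in WT striata, where a single Het library, at 364.3 CPM, just exceeded the lowest WT library, at 363.4 CPM. The changes were -0.60 ± 0.07 (edgeR adjusted p = 6.50e-08) and -0.55 ± 0.07 (adjusted p = 8.48e-07), and Het means were 66.0% and 68.2% of WT means. Kcnip2 (chromosome 19, 45791839 to 45816061, minus strand) stood at 217, 237.5 and 250 CPM in neo-in Het and 286, 335 and 352 CPM in WT striata, and at 197, 220.1 and 252 CPM in neo-out Het and 292, 303.5 and 331 CPM in WT striata. Het and WT libraries did not overlap in either line (-0.46 ± 0.04, adjusted p = 4.82e-09, and -0.48 ± 0.05, adjusted p = 7.31e-09). Kcnip3, a KChIP that also binds DNA and presenilin, fell by 0.24 in each line.

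The sums of the Kv beta and KChIP subfamilies followed these members. Kcnab1 was the Kv beta gene of highest level, and Kcnab2 (-0.07 in each line) and Kcnab3 (0.09 in neo-in and 0.03 in neo-out) were not called. Of the KChIPs, Kcnip1 and Kcnip4 were not called in either line. Kv beta sums ran from 167 to 185 FPKM in neo-in Het and from 205 to 236 FPKM in WT striata, and from 161 to 191 FPKM in neo-out Het and from 210.0 to 224 FPKM in WT striata. KChIP sums ran from 144 to 159 FPKM in neo-in Het and from 168 to 203 FPKM in WT striata, and from 137 to 152 FPKM in neo-out Het and from 174 to 182 FPKM in WT striata. Neither subfamily's sums overlapped in either line. By contrast Kv3 sums overlapped widely, at 52.6 to 65.6 FPKM in neo-in Het and 48.2 to 69.8 FPKM in WT striata. No BK beta gene and no KCNE gene was called in either line by edgeR or DESeq2, and only 2 KCNE genes in neo-out had an unadjusted p below 0.05.

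**Figure D3:**
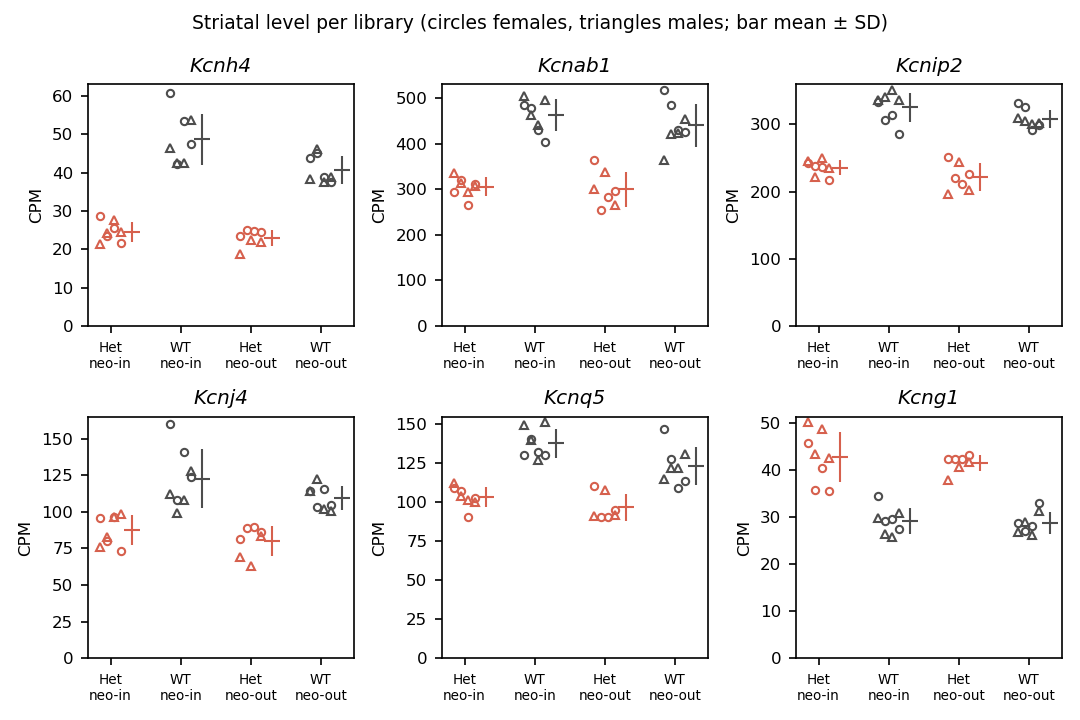
Level in CPM (y axes, from 0) of 6 members in every striatal library, with Het left of WT within each line (x axes). Circles are females, triangles are males, and crosses give the mean with SD, and Kcng1 is the panel in which Het values lie above WT values.

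Genes whose proteins partner potassium channels at the membrane did not move as 1 block. Of 19 such genes 18 were tested, and in neo-in striatum 3 rose and 4 fell, with a median log2 fold change of -0.03. The background there was 19.4% of all genes called (8.75% higher, 10.7% lower). In neo-out 5 rose and 3 fell, with a median of 0.02, beside a background of 18% (8.71% higher, 9.28% lower). Dpp10 and Dpp6, the transmembrane Kv4 partners, rose in both lines, Dpp10 by 0.34 and 0.28, and Lrrc55, a BK channel partner, rose by 0.22 and 0.49. Dlg4, the postsynaptic scaffold that clusters Kv1 and inward rectifier channels, fell by 0.34 and 0.28, and Abcc8, a receptor subunit of ATP-sensitive channels, by 0.25 and 0.28. In cortex and in liver none of the partners was called in either line by the edgeR quasi-likelihood test, with 10 tested in liver. At unadjusted p below 0.05 there were 2 in cortex of each line, 4 in neo-in liver and 2 in neo-out liver, and DESeq2 called 1 lower in neo-in cortex and 0 elsewhere.

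In cortex few members changed. In neo-in 1 of 81 tested members rose and 4 fell, 6.17% called, beside a background of 1.67% (0.424% higher, 1.25% lower). In neo-out 1 rose and 4 fell as well, beside a background of 2.8% (0.825% higher, 1.98% lower). DESeq2 called 1 higher and 8 lower in neo-out. With the liver clock score in the edgeR fit, Kcnh5 alone was called in neo-out cortex (-0.86, adjusted p = 0.0123), beside 0.252% of all genes. Kcns2, Kcna1, Kcnq5 and Kcnf1 gave -0.37, -0.25, -0.21 and 0.09 there with the score, against -0.33, -0.20, -0.17 and 0.14 without it. In neo-in 0 were higher and 3 lower with the score, with Kcnab1 lost (adjusted p = 0.0679). Kcns2 (chromosome 15, 34837355 to 34843407, plus strand) was the member that fell in both. It stood at 17.7, 22.8 and 26.0 CPM in neo-in Het and 25.9, 31.1 and 35.2 CPM in WT cortex, a bare overlap, and at 16.8, 20.03 and 22.2 CPM in neo-out Het and 22.6, 24.8 and 28.5 CPM in WT cortex, without overlap. The changes were -0.48 ± 0.07 (edgeR adjusted p = 0.000102) and -0.33 ± 0.07 (adjusted p = 0.00667). The WT groups themselves differed in Kcns2, lower in neo-out than in neo-in WT cortex by 0.30 on the log2 scale (adjusted p = 0.0161).

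The other members that fell in neo-in cortex were Kcnip3 (-0.27 ± 0.04, edgeR adjusted p = 0.000500), Kcnab1 (-0.22 ± 0.05, adjusted p = 0.00895) and Kcnj10 (-0.18 ± 0.05, adjusted p = 0.0448). Kcnab1 stood at 70.5, 79.9 and 82.0 CPM in neo-in Het and 83.8, 88.1 and 111 CPM in WT cortex, without overlap. The other calls in neo-out cortex were Kcnh5 (-0.56 ± 0.11, adjusted p = 0.00401), Kcna1 (-0.20 ± 0.05, adjusted p = 0.0209), Kcnq5 (-0.17 ± 0.04, adjusted p = 0.0171) and Kcnf1 (0.14 ± 0.04, adjusted p = 0.0487). Kcnh5 stood at 6.42, 7.54 and 9.15 CPM in neo-out Het and 9.07, 10.9 and 16.7 CPM in WT cortex. The calls of Kcnj10, Kcnf1, Kcna1 and Kcnq5 were each lost when any of 4 or more single libraries was left out. Of the 16 medium spiny neuron markers, 9 fell in neo-in and 3 in neo-out cortex, beside 1.25% and 1.98% of all genes. The part of these markers in the members' values was not tested.

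Whether the Het effect itself differed between the regions was tested over both lines together. Of 83 members, 2 had a higher and 10 a lower Het effect in striatum than in cortex, 14.5% called, beside a background of 11% of 18295 genes (4.79% higher, 6.23% lower). Kcnip2 had an effect lower in striatum by 0.36 ± 0.05 (edgeR adjusted p = 2.00e-07), Kcnk2 by 0.37 ± 0.05 (adjusted p = 4.27e-07) and Kcnab1 by 0.42 ± 0.06 (adjusted p = 4.98e-07). Kcng1 had an effect higher in striatum by 0.57 ± 0.08 (adjusted p = 1.45e-07). Other members called were Kcnh4, Kcnj4, Kcns1, Kcnt1, Kcnq5 and Kcnk1, with lower effects in striatum, and Kcnh8, with a higher one. Without the 6 libraries high in Ttr or Slc17a7 the call of Kcns1 was lost (-0.30, against -0.32 with them). Kcnd2 and Kcnq3 were called lower in that fit, at -0.20 and -0.22, against -0.16 and -0.17 with all libraries, where neither was called. With the animal as a block Kcnd2, Kcnq3 and Kcnh3 were called lower as well (edgeR adjusted p = 0.0253, 0.0322 and 0.0401). In cortex the groups overlapped widely for Kcng1, at 12.5, 18.01 and 20.8 CPM in neo-in Het and 14.2, 18.1 and 22.1 CPM in WT cortex, and for Kcnk2, at 46.1, 52.2 and 56.8 CPM in neo-in Het and 47.4, 52.2 and 55.7 CPM in WT cortex. On FPKM values the split over all genes for this difference was 62.6% higher, against 43.5% from counts, and members numbered 4 higher and 9 lower.

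**Figure D4:**
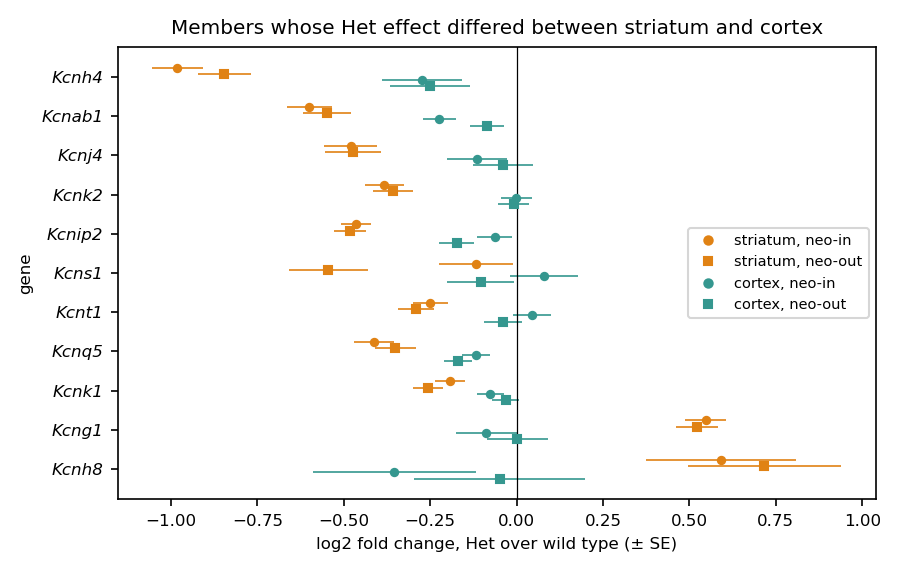
Log2 fold change of Het over WT (x axis, ± SE) in striatum (orange) and cortex (teal) for 11 members whose Het effect differed between the regions (y axis), with circles for neo-in and squares for neo-out. Kcng1 and Kcnh8 lie right of 0 in striatum, and the other 9 lie farther left in striatum than in cortex.

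In liver no member was called in either line, 0 of 34 tested by the edgeR quasi-likelihood test and also by DESeq2, with 2 in neo-in and 1 in neo-out at unadjusted p below 0.05. The backgrounds were 0.539% and 0.533%. Kcnn2 stood at 17.4, 22.8 and 31.5 CPM in neo-in Het and 13.9, 22.7 and 25.5 CPM in WT liver. Kcnk5 stood at 24.8, 36.8 and 52.4 CPM in neo-in Het and 35.8, 48.5 and 59.2 CPM in WT liver, and at 16.8, 25.0 and 29.6 CPM in neo-out Het and 8.84, 26.2 and 51.9 CPM in WT liver. The groups overlapped widely for both genes.

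The WT mice of the neo-out line differed from those of the neo-in line in a few members. In liver, of 34 members tested, 1 was higher and 3 were lower in neo-out WT, beside a background of 9.36% of 15208 genes (4.91% higher, 4.45% lower). Kcnk10 was lower by 1.27 ± 0.31 on the log2 scale (edgeR adjusted p = 0.00892), Kcnk5 by 0.80 ± 0.22 (adjusted p = 0.0194) and Kcnk3 by 1.24 ± 0.36 (adjusted p = 0.0289), all leak channels, and Kcnab1 was higher by 0.94 ± 0.29 (adjusted p = 0.0361). Apart from Kcnk5 these were low-level genes. Mean neo-out and neo-in WT levels were 0.721 and 1.83 CPM for Kcnk10, 0.127 and 0.338 CPM for Kcnk3 and 0.941 and 0.447 CPM for Kcnab1. For Kcnk5 they were 26.5 and 46.7 CPM. The liver clock score moved with this comparison too. It ran from 1.53 to 3.72 in neo-out WT and from -2.62 to 0.32 in neo-in WT mice. These ranges did not overlap, so a fit with the score cannot well separate line from score. In that fit none of the 4 was called. Kcnk10 gave -0.93, Kcnk3 -0.41, Kcnk5 0.18 and Kcnab1 1.335. In cortex Kcns2 and Kcna4 were lower in neo-out WT, by 0.30 and 0.27, beside a background of 1.79% (1.04% higher, 0.751% lower), and in striatum Kcnip3 was lower by 0.18 (adjusted p = 0.0259), beside a background of 0.469%. With the clock score none of these 3 was called. Kcns2 gave -0.23 (edgeR adjusted p = 0.569), Kcna4 -0.25 (adjusted p = 0.549) and Kcnip3 -0.10 (adjusted p = 0.979). Without the 6 striatal libraries high in Ttr or Slc17a7 Kcnip3 gave -0.16 (adjusted p = 0.688).

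No member differed between the lines in its Het effect (neo-out less neo-in) in striatum, cortex or liver, 0 by the edgeR quasi-likelihood test and 0 by DESeq2, with 2, 7 and 1 at unadjusted p below 0.05. The backgrounds were 0.00565%, 0% and 0.835%. The member with the smallest p in striatum was Kcns1 (-0.43 ± 0.16, adjusted p = 0.996), so calls made in 1 line alone do not show a difference between the lines. Likewise no member's Het effect differed between females and males by either tool, with 8, 11 and 2 at unadjusted p below 0.05 and a background of 0% in each tissue. The smallest p in striatum was that of Kcna5, whose Het effect was 0.36 ± 0.10 higher in females (edgeR adjusted p = 0.793).

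Kcnj13, a low-conductance inward rectifier of choroid plexus and retinal pigment epithelium, and Kcne2, a KCNE subunit of choroid plexus, were highest in the libraries highest in Ttr. In neo-out WT striatum female 3, with 1348 CPM of Ttr, they were at 7.75 and 10.4 CPM, and the other striatal libraries had at most 1.07 CPM of Kcnj13 and 0.722 CPM of Kcne2. In cortex the 3 libraries highest in Ttr were neo-out WT female 1 (1578 CPM, with 14.1 CPM of Kcnj13 and 10.3 CPM of Kcne2), neo-in Het female 3 (628 CPM, with 5.73 and 4.20 CPM) and neo-in Het male 1 (238 CPM, with 2.63 and 1.96 CPM). Kcnj13 stood at 0.0, 0.165 and 1.07 CPM in neo-out Het and 0.0614, 0.299 and 7.75 CPM in WT striata, and its log2 fold change of -1.92 was not called (edgeR adjusted p = 0.0780). Kcnj13 overlaps Gigyf2 on the opposite strand. Of 10 choroid plexus markers 4 were lower in neo-out Het striatum, with sums of 290 to 358 CPM in Het and 312 to 2497 CPM in WT.

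**Figure D5:**
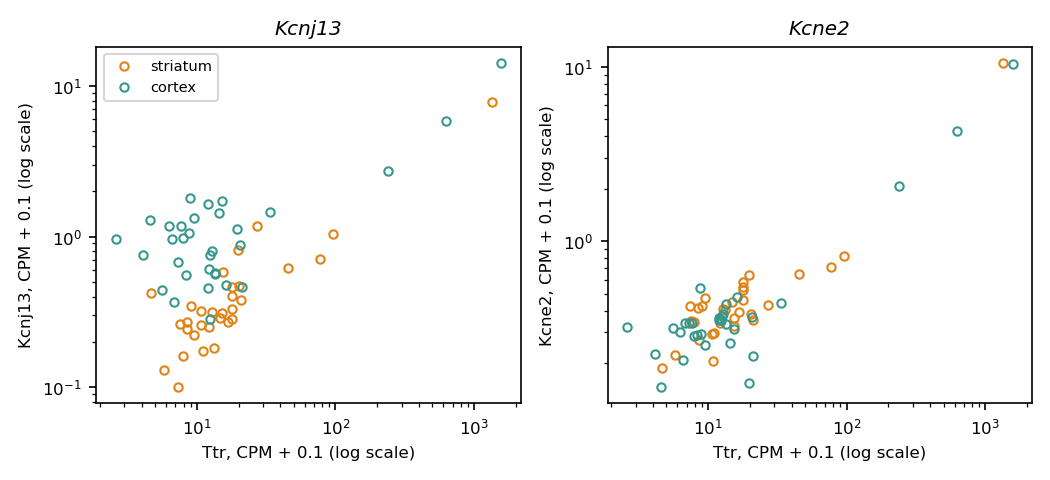
Level of Kcnj13 (left) and Kcne2 (right) against Ttr in every striatal (orange) and cortical (teal) library, all in CPM + 0.1 on log axes. The 4 libraries highest in Ttr, 1 of striatum and 3 of cortex, are also the highest in both genes.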

How the data were processed

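Messenger RNA libraries from 95 tissue samples of 32 mice were analysed, grouped by line, genotype, tissue, sex and replicate from the sample titles. The authors deposited 2 tables: expected counts per gene, not scaled to depth, and FPKM, which the authors divided by transcript length and depth. The submitters' processing notes name CASAVA 1.8.2 and the build mm10. Aligner, counting program, annotation and strandedness were not given in the sources used here. Where strand is not kept, reads of overlapping genes cannot be told apart. Per the labels' protocols, RNA was extracted with the Qiagen miRNeasy kit from flash-frozen tissue. Of the expected counts above 1, 25.6% were not whole (tolerance 0.01), and all were rounded to whole counts. Gene identifiers were matched to GENCODE M21 (GRCm38), which named 37693; 1486 stayed unnamed and held at most 0.276% of a library's counts. Over 141 pairs of replicates the lowest chi-square per gene was 4.15, so no library was counted as a copy of another.

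Counts were filtered with filterByExpr, scaled by TMM and fitted with edgeR 4.0.16 (R 4.3.3) by quasi-likelihood, with 1 coefficient per line, genotype and sex. Tissues were fitted alone, and jointly with tissue as part of the group for comparisons between tissues. Het effects average both sexes. P-values were adjusted by Benjamini-Hochberg over all genes of a comparison, and a gene was called below 0.05. Tissue comparisons use libraries of the same animals, which the fit treats as separate; a fit with the animal as a block was an alternative. Alternatives were DESeq2 1.42.0, its size factors in edgeR, no filter, limma 3.58.1 on log2(FPKM + 0.1) and log2(FPKM + 1), the replicate number as a block, single libraries left out, a liver clock score as covariate, and striatal libraries high in Slc17a7 or Ttr left out. Each animal is a separate mouse, per the labels. Named in each Het comparison were the 6 highest and 8 lowest called members with a mean of at least 1 CPM, plus a fixed set of members of interest; Kcnh3 in neo-in, Kcnk1, Kcnk13, Kcnt1, Kcns2, Kcnq3, Kcnip3, Kcnma1, Kcnc1, Kcnc2 and Kcna5 in striatum, Kcnb2, Kcnc1 and Kcnc2 in the comparison of striatum with cortex, Kcne3 and Kcnq1 in the comparison of liver with cortex, Kcnn2 and Kcnk5 in Het liver, and Kcne2 were named after their values were seen. A few members are not reported here by name; counts over the members include them. The members and the gene lists were chosen with earlier results of these data known. Promoters came from a RefSeq table for GRCm38.p6. Depth of 31.02 to 68.36 M counts per library leaves members below about 1 CPM with wide errors.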

Additional observations from a re-analysis of the deposited data

Results flagged for a closer look

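In each group of 7 or 8 libraries of a line, genotype and tissue, the highest and the lowest library were compared with the rest by Dixon's test at the 95% level. This was done for each named member in the tissues where it was named, which gave 144 pairs of gene and group. Of these pairs, which share libraries, 8 held such a library, and chance gives about 1 in 20, close to the share flagged. In 4 cases the gene was Kcnj13 or Kcne2. Neo-out Het striatum female 3, flagged for Kcnj13, was not the highest of its group in Kcne2 (0.329 CPM, against 0.486 CPM in female 2). Kcnj13 was at 1.07 CPM in neo-out Het striatum female 3 (next 0.2289) and at 7.751 CPM in neo-out WT striatum female 3 (next 0.9365). Kcne2 was at 4.197 CPM in neo-in Het cortex female 3 (next 1.961) and at 10.31 CPM in neo-out WT cortex female 1 (next 0.4377). Kcnj8 was highest at 4.253 CPM in neo-out Het striatum female 3 (next 3.757) and at 6.134 CPM in neo-in WT striatum male 3 (next 4.346). Kcns1 was highest at 7.902 CPM in neo-in Het striatum male 4 (next 6.013), and Kcnk3 at 0.455 CPM in neo-out Het liver female 1 (next 0.2792).

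The Het effect of 11 named members differed between striatum and cortex over both lines, as a log2 difference of striatum less cortex with edgeR adjusted p. It was lower in striatum for Kcnh4 (-0.65, adjusted p = 3.09e-06), Kcnab1 (-0.42, 4.98e-07), Kcnj4 (-0.40, 0.000557), Kcnk2 (-0.37, 4.27e-07), Kcnip2 (-0.36, 2.00e-07), Kcns1 (-0.32, 0.0400), Kcnt1 (-0.27, 0.000163), Kcnq5 (-0.24, 0.000685) and Kcnk1 (-0.17, 0.00153). It was higher in striatum for Kcng1 (0.57, 1.45e-07) and Kcnh8 (0.85, 0.00945).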

How the results depend on the processing

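Counts of members called are given as alternative value against the value reported. With the liver clock score as covariate, higher calls numbered 1 in neo-in striatum (2), 0 in cortex of either line (1 each) and 0 for the WT lines in liver (1); lower calls numbered 1 in neo-out cortex (4) and 0 for the WT lines in striatum (1), cortex (2) and liver (3). With that score 6.327% of all genes were called in neo-out striatum (18%). Without the 6 striatal libraries over 5 times the median of Slc17a7 or Ttr, a setting chosen after seeing the data, neo-in striatum had 1 higher call (2) and the WT lines 0 lower calls (1). That setting leaves 1 neo-out WT female, assumed to vary like the other groups. Over 3 times the median takes all 4 neo-out WT females, so comparisons that use them could not be fitted. DESeq2 gave 1 higher (0) and 2 lower (1) for the WT lines in striatum, 8 lower in neo-out cortex (4) and 2 higher for the WT lines in cortex (0). The replicate numbers do not pair Het and WT animals (correlations of same-numbered libraries -0.22 to 0.242), and with a replicate block higher calls in cortex were 0 in both lines (1 each), while striatum had 2 higher and 23 lower in neo-in and 2 higher and 17 lower in neo-out. With the animal as replicate block, WT striatum against cortex had 26 higher and 47 lower calls and the Het effect in striatum less cortex 2 higher and 13 lower. Without the filter neo-out cortex had 0 higher calls (1). With limma on FPKM the WT lines in cortex had 1 lower call (2), liver against cortex 5 higher (8) and the Het effect in striatum less cortex 4 higher (2). Signs reversed for Kcnj13 in neo-in striatum (0.13 reported), which gave -0.0011 with FPKM + 1, -0.81 with the clock score, -0.25 without libraries over 3 or 5 times the median and -0.25 to 0.41 over fits with 1 library left out. They also reversed for Kcnj13 in neo-out striatum (0.45 with the clock score), Kcnj10 in neo-out striatum (0.041, clock score), Kcnk5 between WT livers (0.18, clock score), and Kcnj8 (-0.33 and -0.19) and Kcnn2 (-0.27 and -0.25) in liver against cortex with FPKM + 0.1 and + 1. The causes were not tested.

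With 1 library left out, higher and lower calls ranged over 1 to 3 and 18 to 21 in neo-in striatum, 1 to 3 and 15 to 19 in neo-out striatum, 0 to 1 and 3 to 5 in neo-in cortex, 0 to 1 and 2 to 6 in neo-out cortex, 0 to 1 and 0 to 2 for the WT lines in striatum, 0 to 3 and 0 to 3 in cortex and 0 to 2 and 2 to 3 in liver. For comparisons between tissues, all libraries of 1 replicate number were left out together, and calls ranged over 1 to 2 and 9 to 12 for the Het effect in striatum less cortex, 23 to 24 and 46 for WT striatum against cortex and 8 to 9 and 75 for liver against cortex. Line differences, sex differences and liver Het effects stayed at 0 calls in these fits.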
